A study of Mus musculus with 8 samples.

Results

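The genes described here are 36 targets of PPAR-alpha and genes of fatty acid oxidation, measured in mouse liver after chemical injury. They were taken as a named set, each through the brightest of its probes that was well above background on at least 4 of 8 arrays. All 36 had such a probe, among 18534 features (genes or unnamed transcripts) that passed the same filter. The Acot2 and Crat probes were well above background on 6 arrays, and the others on all 8. The set falls into 3 regulators, 4 acyl-CoA thioesterases, 6 genes of fatty acid uptake, activation and the carnitine shuttle, 11 genes of mitochondrial beta-oxidation, 7 genes of peroxisomal beta-oxidation and the peroxisome, 2 microsomal omega-hydroxylases, 1 ketone body enzyme and 2 further targets, Pdk4 and Vnn1.

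The livers came from male mice that had all received an injurious agent for 5 weeks. This was CCl4 (carbon tetrachloride) in one arm of the study and TAA (in liver injury models, thioacetamide) in the other. An oligonucleotide, a negative control (NC) or miR-29a, was then injected every 3 days over an observation period of 1 or 2 weeks. This gave 8 combinations of agent, week and oligonucleotide, with 1 array each: CCl4 at 1 week with NC, CCl4 at 1 week with miR-29a, CCl4 at 2 weeks with NC, CCl4 at 2 weeks with miR-29a, and the same 4 for TAA. Livers without injury were not analysed here, so every value compares one injured liver with another. The labels give neither strain nor age, and do not say whether an array holds 1 animal or a pool. The spread behind each test below is the spread left between arrays once the design's terms are fitted, with no replicate within a combination.

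PPAR-alpha is a nuclear receptor that binds fatty acids and related lipids, pairs with RXR, and switches on genes that take up and burn fat. In the liver it carries much of the response to fasting: fatty acids are activated to acyl-CoA, enter mitochondria through the carnitine shuttle, are shortened by beta-oxidation, and leave in part as ketone bodies. Peroxisomes shorten very long and branched chains, and microsomal cytochromes of the Cyp4a family oxidise the far end of the chain.

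The receptor pair binds repeats of AGGTCA with 1 base between them, so the promoters of the members were searched for such repeats. RefSeq (GRCm38.p6) windows of 250 bases before to 50 after the start were matched for 29 of the 36 members. The full repeat AGGTCANAGGTCA, searched on both strands, was found in 0 of the 29 and in 0.0481% of 27025 genes with a window. The looser AGGNCANAGGNCA was found in 1 of 29 (3.45%, against 0.451% of all genes), and a shorter part with the spacer, CANAGGTCA, which the full repeat contains, in 2 of 29 (6.9%, against 1.85%). The 2 stretches below hold these matches in capitals. They are shown because Acot4 was lower after TAA at 1 week and Fabp1, which also has a match, was not. A match describes letters only. The Acot4 match, TGACCTTTG, is the short form on the opposite strand and ends 5 bases before the start, at chr12:84038342-84038378 (plus strand). The Fabp1 match, TGACCTATGGCCT, is the looser repeat on the opposite strand and ends 55 bases before the start, at chr6:71199788-71199848 (plus strand).
Acot4: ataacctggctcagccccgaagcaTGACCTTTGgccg
Fabp1: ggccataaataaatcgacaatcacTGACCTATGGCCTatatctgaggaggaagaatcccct
The namesake of the injected oligonucleotide in RefSeq is mmu-miR-29a-3p, from chromosome 6 (31062673 to 31062694, minus strand). It is printed with its seed (bases 2 to 8) in capitals. The labels do not give the sequence of the oligonucleotide.
miR-29a-3p: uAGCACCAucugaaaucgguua

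All 8 arrays shared 1 slide and 1 scan. The 4 CCl4 arrays lay in one row of the slide and the 4 TAA arrays in the other, so agent and slide row cannot be told apart. Between 43.95% and 48.38% of spots were well above background on each array, and no spot was saturated. The hepatocyte marker list summed to between 7319 and 9260 times an array's 75th percentile on the 8 arrays. A sum follows the brightest genes. Of its 14 measured genes, 11 were lower after TAA than CCl4 at 1 week with NC (median −0.49, against −0.21 over all features). With miR-29a 6 of the 14 were lower at that week (median 0.06). In the fit 2 of the 14 were called lower at 1 week, against 23% of all features. Of the fat list, Adipoq, Plin1, Lep, Retn and Ucp1 were well above background on none. Cfd and Cox8b were so on 3, and Fabp4, Cox7a1, Elovl3 and Lipe on all 8. Of the muscle list, Myh1, Mb and Actn3 were so on none, Ckm and Myl1 on 1, Tnnt3 on 2, Acta1 and Myh4 on 3, and Pvalb on all 8. Of a pancreas list, Ctrb1 and Ins2 were so on all 8, Cela1 on 5, and the others with a probe on 2 or fewer. Whether the samples hold other tissue was not tested. The array of TAA at 1 week with NC stood apart from the others. On that array the acute phase list summed to 20680 against 6700 to 8565 on the others, the 12 measured Kupffer cell markers to 394.5 against 55.38 to 99.92, and the 7 measured neutrophil markers to 452.9 against 91.83 to 165.4. The neutrophil genes Ngp, Ltf, Mpo, Cxcr2 and Mmp8 were well above background on 1 array. These lists move with the members' low values on that array, and their part in those values was not tested. In these whole-liver samples, fewer cells of a type and less RNA per cell cannot be told apart.

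Levels below are log2 of the background-corrected intensity relative to the array's 75th percentile, so that 0 is the 75th percentile and 1 is double it. They can be compared between arrays for a gene, and not between genes, whose probes differ. A gene was called where limma's moderated test gave a Benjamini-Hochberg adjusted p under 0.05 over all 18534 features. Differences are given ± SE, and arrays are listed in the order 1 week NC, 1 week miR-29a, 2 weeks NC, 2 weeks miR-29a.

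Most members were lowest on 1 array. For 30 of the 36, the lowest of the 8 levels was on TAA at 1 week with NC, where 31.8% of all features had their lowest level. For 17 of the 36 the highest level was on CCl4 at 1 week with miR-29a, against 21.3% of all features. The members' median deviation from each gene's mean was 0.23, 0.35, 0.20 and 0.22 on the CCl4 arrays and −0.80, −0.18, 0.09 and −0.09 on the TAA arrays. The set was thus low after TAA at 1 week, most of all with NC, and near the CCl4 arrays at 2 weeks.

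**Figure D1:**
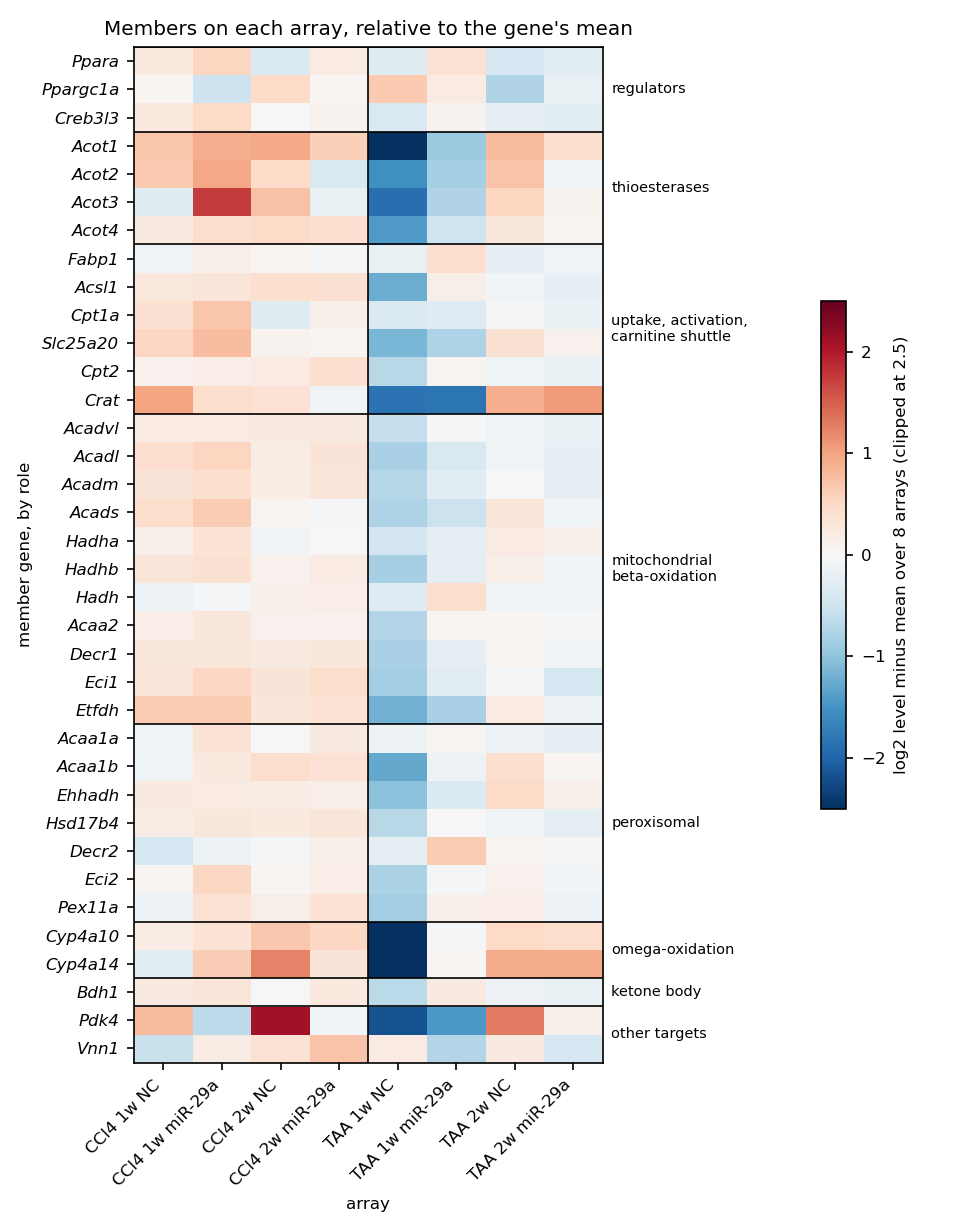
Heat map of the 36 members (rows, by role) on the 8 arrays (columns). Colour is the log2 level minus the gene's mean over the 8 arrays, with colours ending at 2.5 in each direction. The column of TAA at 1 week with NC is low for most rows (median −0.80), and the 2-week columns of the agents resemble each other.

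The first comparison was between the agents at 1 week. TAA livers were lower than CCl4 livers for 15 of the 36 members and higher for 0, where 23% of all features were called lower and 12.6% higher. The 15 include Acot2 and Crat, which were not well above background on either TAA array at 1 week. Among probes well above background on all 8 arrays, 13 of the 15 were called, where 26.7% of all features were lower. By role, the called genes were thioesterases (3 of 4, with Acot2), the carnitine shuttle and its neighbours (3 of 6, with Crat) and mitochondrial beta-oxidation (8 of 11). Of the peroxisomal genes 1 of 7 was called, and none among the 3 regulators, the 2 omega-hydroxylases, Bdh1, Pdk4 and Vnn1. The median difference over the 36 was −0.82, against −0.16 over all features, and 32 were below 0. Both TAA arrays at 1 week lay below both CCl4 arrays of that week for 27 members, against 42.5% of all features. Bright features were called lower more often than dim ones: of the 3597 features with a mean level of 4 or above, 34.6% were called lower with a median of −0.37, and of the 24 members at that level 7 were called, with a median of −0.63. Between levels of 2 and 4, 5 of 6 members were called lower, against 29.9% of 3492 features. The share called among the brightest members was therefore no larger than that of features equally bright.

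**Figure D2:**
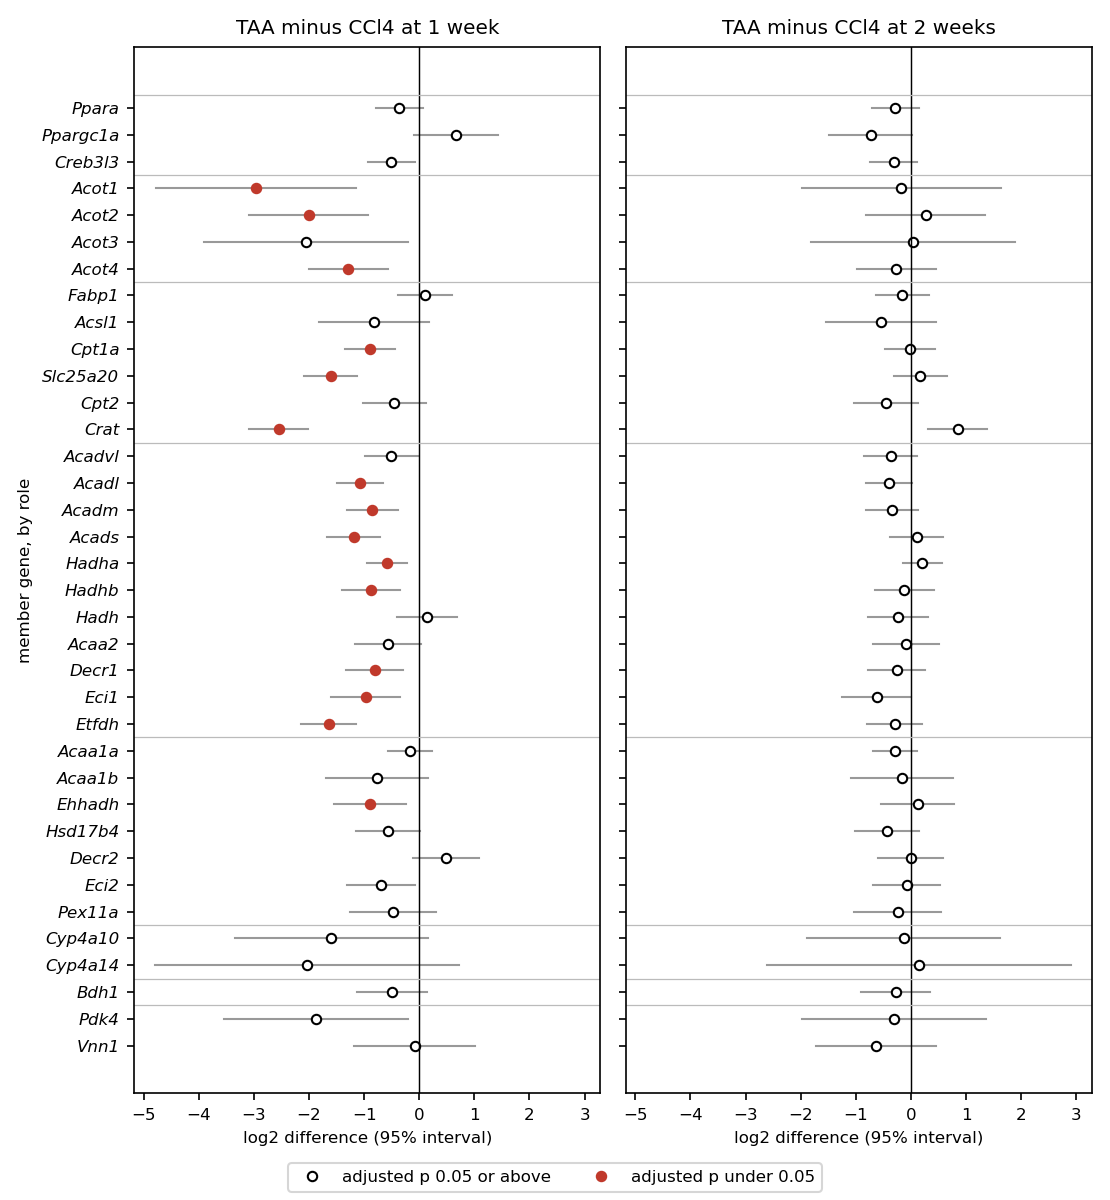
Difference between TAA and CCl4 (log2, horizontal axis) for each member at 1 week and at 2 weeks, with 95% intervals from the limma fit. At 1 week most points lie left of 0 (median −0.82), and at 2 weeks they lie close to 0 (median −0.24).

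Among the regulators, Ppara, the receptor itself (probe on chromosome 15, 85632110 to 85632169, mm9, as all probe positions here), was at 6.21, 6.52, 5.63 and 6.19 on the CCl4 arrays and 5.67, 6.34, 5.55 and 5.71 on the TAA arrays. The agents overlapped at 1 week, with a difference of −0.36 ± 0.17 (limma, adjusted p = 0.15) that was 0.05 with quantile normalization. Of its other probes, the third gave a difference of 0.53. Ppargc1a, the coactivator of mitochondrial genes, was at 1.36, 0.79, 1.78 and 1.36 after CCl4 and 1.97, 1.52, 0.56 and 1.12 after TAA. Both TAA arrays were above the CCl4 arrays at 1 week and below them at 2 weeks, with differences of 0.67 (adjusted p = 0.137) and −0.73 (adjusted p = 0.441). A second Ppargc1a probe, well above background on 6 arrays, gave 0.06 at 1 week and −1.38 at 2 weeks. Creb3l3, a hepatocyte transcription factor that works with PPAR-alpha in fasting, was at 7.54, 7.78, 7.30 and 7.38 after CCl4 and 6.91, 7.39, 7.05 and 7.0 after TAA. Its 1-week difference of −0.51 did not pass the test (adjusted p = 0.0666).

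The thioesterases, which split acyl-CoA into free fatty acid and CoA, had a median difference of −2.03 at 1 week. That median rests in part on Acot2, which was not well above background on the 1-week TAA arrays. Acot1, the cytosolic enzyme (chromosome 12, 85358561 to 85358620), was at 4.56, 4.78, 4.82 and 4.46 after CCl4 and 0.48, 2.94, 4.67 and 4.28 after TAA. Both TAA arrays at 1 week lay below all others, and the 2-week arrays of the agents lay close together. Acot1 was 7.77-fold lower after TAA at 1 week (log2 −2.96 ± 0.72, adjusted p = 0.029) and at −0.17 at 2 weeks, with a 95% interval of −1.98 to 1.64. Acot4, a peroxisomal thioesterase (chromosome 12, 85384821 to 85384880), was at 1.59, 1.79, 1.83 and 1.78 after CCl4 and −0.05, 0.86, 1.65 and 1.43 after TAA. Again the 1-week TAA arrays were the lowest pair, and the gene was 2.44-fold lower (adjusted p = 0.0225). Acot2, the mitochondrial enzyme, was at −1.73, −1.42, −1.92 and −2.77 after CCl4 and −3.93, −3.23, −1.68 and −2.47 after TAA. It was not well above background on either TAA array at 1 week, so its fold was not measured. Raised on those arrays to the lowest signal of any probe well above background, it was 2.89-fold lower. That value is not a strict minimum. The call (limma, adjusted p = 0.0205) is of the signal as measured and does not test it. With normexp background correction the difference was −0.52 and was not called. Acot3 had a difference of −2.05 that did not pass (adjusted p = 0.0816). The Acot genes are close copies of one another on chromosome 12, and their probes may share signal.

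Uptake and the carnitine shuttle differed within the group. Slc25a20, which carries acylcarnitine across the inner mitochondrial membrane (chromosome 9, 108585399 to 108585458), was at 2.88, 3.13, 2.45 and 2.41 after CCl4 and 1.22, 1.58, 2.74 and 2.46 after TAA. The 1-week TAA arrays were below the other 6, a 3.04-fold lower level than after CCl4 (log2 −1.61 ± 0.19, adjusted p = 0.0053). Cpt1a, the enzyme that gates entry of long-chain fatty acids (chromosome 19, 3385374 to 3385433), was at 6.05, 6.36, 5.35 and 5.79 after CCl4 and 5.30, 5.33, 5.62 and 5.49 after TAA. Here the 1-week CCl4 arrays were the high ones, and TAA was 1.85-fold lower at 1 week (log2 −0.89 ± 0.18, adjusted p = 0.0175). Crat, carnitine acetyltransferase (chromosome 2, 30265479 to 30265538), was at −2.01, −2.54, −2.63 and −3.08 after CCl4 and −4.84, −4.81, −2.08 and −1.93 after TAA. It was dim throughout and not well above background on the 1-week TAA arrays. Raised to the same lowest signal there, it was 2.14-fold lower, again not a strict minimum. Its adjusted p of 0.00417 (limma) is likewise of the signal as measured. With normexp the difference was −0.31 and was not called. Fabp1, the liver fatty acid binding protein, Acsl1, which activates long chains, and Cpt2, which reforms acyl-CoA inside mitochondria, were not called. Fabp1 ranged from 9.78 to 10.39 over the 8 arrays, with a 1-week difference of 0.10. A second Cpt2 probe gave −2.91 where the brightest gave −0.45, so the Cpt2 value depends on the probe.

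In mitochondrial beta-oxidation the 1-week difference had a median of −0.85 over 11 genes, and Etfdh was the largest. Etfdh, which passes electrons from the acyl-CoA dehydrogenases to ubiquinone (chromosome 3, 79407806 to 79407865), was at 6.67, 6.69, 6.35 and 6.4 after CCl4 and 4.84, 5.24, 6.26 and 5.91 after TAA. The TAA arrays lay below all CCl4 arrays at both weeks. TAA was 3.12-fold lower at 1 week (log2 −1.64 ± 0.20, adjusted p = 0.0054), and the 2-week difference was −0.29 (adjusted p = 0.554). Acads, the short-chain dehydrogenase (chromosome 5, 115560887 to 115560946), was at 3.32, 3.51, 2.95 and 2.85 after CCl4 and 2.11, 2.34, 3.19 and 2.82 after TAA. The 1-week TAA arrays were the lowest pair, 2.28-fold below CCl4 (adjusted p = 0.00929). Acadl, the long-chain dehydrogenase (chromosome 1, 66877673 to 66877732), was at 4.22, 4.33, 3.98 and 4.13 after CCl4 and 2.98, 3.42, 3.72 and 3.60 after TAA. Its TAA arrays all lay below its CCl4 arrays, and the 1-week difference was 2.11-fold (adjusted p = 0.00902). Eci1, which moves double bonds so that unsaturated chains can be oxidised, was at 6.38, 6.61, 6.41 and 6.53 after CCl4 and 5.23, 5.82, 6.06 and 5.64 after TAA, again without overlap, and was 1.96-fold lower at 1 week (adjusted p = 0.0338). The other called genes were Acadm (medium-chain dehydrogenase, −0.85), Hadhb (−0.88) and Hadha (−0.59), the subunits of the trifunctional protein, and Decr1 (−0.81), the dienoyl-CoA reductase. Acadvl, Hadh and Acaa2 were not called. Hadh, the short-chain hydroxyacyl-CoA dehydrogenase, was at 0.14.

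The peroxisomal members had a smaller median difference (−0.57), and Ehhadh alone of the 7 was called. Wider lists did not show this contrast: the 1-week median was −0.71 over 37 peroxisomal and −0.72 over 22 mitochondrial genes. Ehhadh, the bifunctional enzyme of the peroxisomal path (chromosome 16, 21761914 to 21761973), was at 5.55, 5.52, 5.51 and 5.48 after CCl4 and 4.29, 4.98, 5.80 and 5.44 after TAA. The CCl4 arrays were nearly level, and the 1-week TAA arrays were the lowest, 1.86-fold below (log2 −0.90 ± 0.26, adjusted p = 0.048). Acaa1b, a peroxisomal thiolase with a close copy in Acaa1a, was at 7.05, 7.4, 7.59 and 7.51 after CCl4 and 5.88, 7.03, 7.56 and 7.21 after TAA, and its difference of −0.77 did not pass (adjusted p = 0.154). Pex11a, which divides peroxisomes, was at 5.64, 6.14, 5.93 and 6.14 after CCl4 and 4.91, 5.90, 5.95 and 5.64 after TAA. Both were low on TAA at 1 week with NC and within 0.4 of a CCl4 array on the miR-29a array of that week. Decr2, the peroxisomal dienoyl-CoA reductase, was one of the 4 members with a 1-week difference above 0 (0.48).

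The omega-hydroxylases were low on a single array. Cyp4a10 was at 7.03, 7.18, 7.50 and 7.35 after CCl4 and 4.22, 6.79, 7.32 and 7.27 after TAA. Cyp4a14 was at 6.91, 7.80, 8.43 and 7.51 after CCl4 and 3.40, 7.24, 8.11 and 8.12 after TAA. Only the NC array of TAA at 1 week was far below the others for either gene, with differences of −2.81 and −3.51 from the CCl4 array with NC. The fitted 1-week differences were −1.60 for Cyp4a10 (adjusted p = 0.128) and −2.04 for Cyp4a14 (adjusted p = 0.195). Without that array they were −0.30 and −0.11. These genes have close copies in the Cyp4a cluster of chromosome 4, and the probes may share signal.

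**Figure D3:**
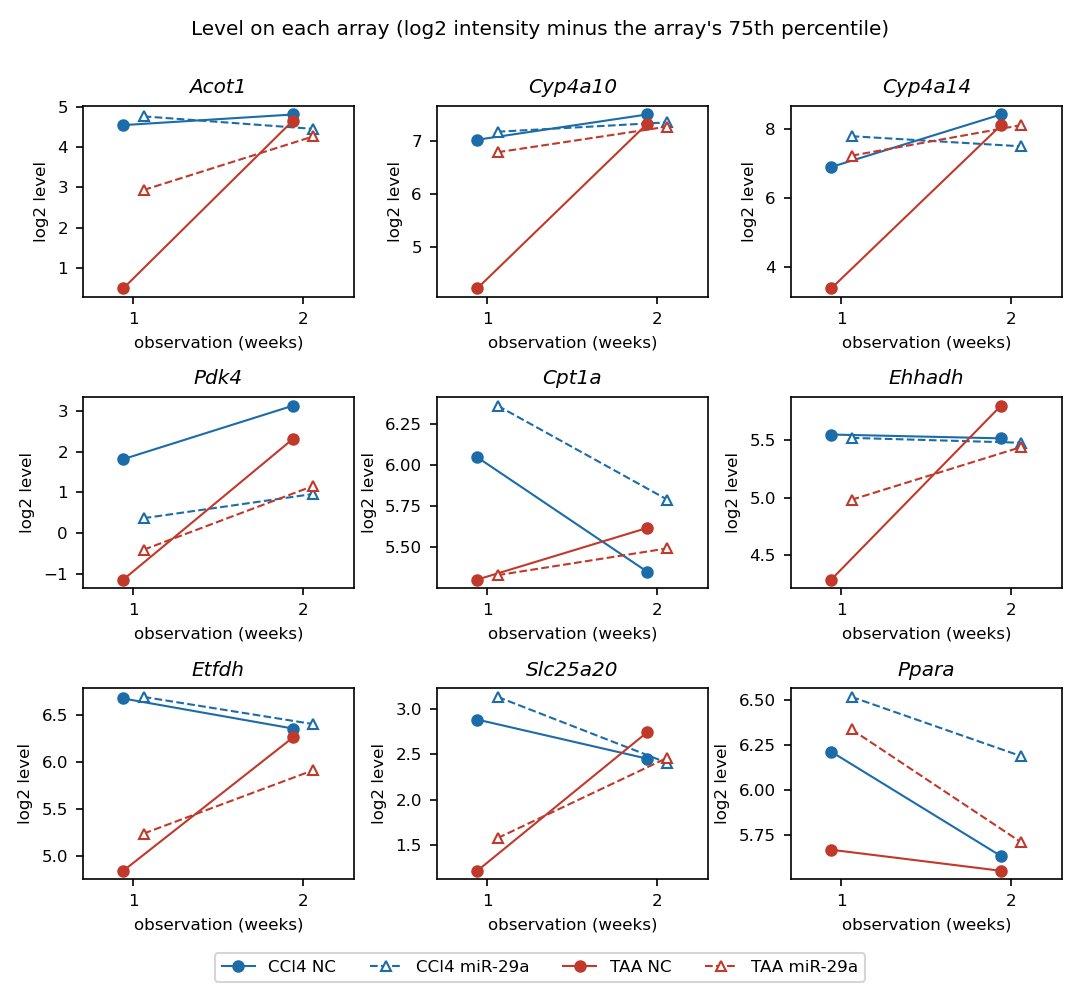
Levels of 9 members (log2 relative to the array's 75th percentile, vertical axis) at 1 and 2 weeks, 1 point per array. Lines join the arrays of one agent and oligonucleotide, which are different samples. Etfdh and Slc25a20 are low on both TAA arrays at 1 week, while Cyp4a10 and Cyp4a14 are low on the NC array alone.

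Ketone body genes were mostly below 0 at 1 week, with few called. Bdh1, the last enzyme of ketone body synthesis and the member of the set in this path (chromosome 16, 31457378 to 31457437), was at 7.12, 7.19, 6.89 and 7.12 after CCl4 and 6.21, 7.11, 6.75 and 6.71 after TAA. The agents were within 0.1 of each other on the miR-29a arrays at 1 week, and the difference of −0.50 did not pass (adjusted p = 0.174). Other Bdh1 probes gave −1.05 and −0.57. With the mean of a gene's probes Bdh1 was called lower (−0.705, limma, adjusted p = 0.0454), so the call depends on the probe. Of 9 measured genes of a wider ketone body list, 2 were called lower at 1 week, near the 23% of all features, and 0 higher. Differences were below 0 for 8 of the 9, with a median of −0.50 against −0.16 over all features. Bdh2, a cytosolic dehydrogenase, had a difference of −1.43 (adjusted p = 0.0272). Acat1, the mitochondrial thiolase, was at −0.52 (adjusted p = 0.0865), and Sirt3, the mitochondrial deacetylase, at −0.75 (adjusted p = 0.0798).

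Pdk4, the kinase that turns off pyruvate dehydrogenase when fat is burned (chromosome 6, 5433441 to 5433500), was at 1.82, 0.37, 3.13 and 0.96 after CCl4 and −1.15, −0.41, 2.31 and 1.16 after TAA. The 1-week TAA arrays were the lowest and the 2-week NC arrays the highest. Its 1-week difference was −1.87, with an interval of −3.54 to −0.20 and an adjusted p of 0.0796. Vnn1, a pantetheinase, was at 1.80, 2.55, 2.72 and 3.06 after CCl4 and 2.55, 1.63, 2.58 and 1.93 after TAA, with the agents overlapping.

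The array that stood apart bears on these counts. Without the array of TAA at 1 week with NC, 8 of the 15 calls remained, where 18.2% of all features were called lower: Crat, Slc25a20, Etfdh, Acadl, Acads, Cpt1a, Acot1 and Acot4. The median over the 36 was then −0.43. Etfdh was at −1.40 and Slc25a20 at −1.41 without it. Acot1, with 7.77-fold in the full fit, was at −1.64. Leaving out the other 1-week arrays gave 26 members lower without TAA with miR-29a (26.6% of all features), 5 without CCl4 with NC (9.24%) and 3 without CCl4 with miR-29a (5.07%). Without either of the 2-week CCl4 arrays 8 members were called lower (14.6% of all features), and without either of the 2-week TAA arrays 14 (17.9%). The scale mattered as well. With each array's median in place of its 75th percentile, the median of all features moved from −0.16 to −0.75, 10675 features were called lower and 1119 higher (4270 and 2343 as reported), and 30 members were called lower, against 57.6% of all features. With quantile normalization 8 of the 36 were called lower, near the 17.8% of all features.

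At 2 weeks the agents were closer. None of the 36 members was called, nor was any of the 18534 features (0%, limma), while 11.3% of all features and 1 member had an unadjusted p under 0.05. That member was Crat, at 0.85 higher after TAA (unadjusted p = 0.00939, adjusted p = 0.439). The median over the 36 was −0.24, against −0.08 over all features, and 28 were below 0. By role the medians were −0.07 for thioesterases, −0.08 for the shuttle, −0.26 for mitochondrial and −0.16 for peroxisomal beta-oxidation. Intervals at 2 weeks were wide for the genes that varied most: −2.60 to 2.90 for Cyp4a14 and −1.98 to 1.36 for Pdk4. They were narrower for Cpt1a (−0.47 to 0.44), Slc25a20 (−0.31 to 0.66) and Acads (−0.37 to 0.58).

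Whether the agent difference changed between weeks was tested directly with the agent by week term. It was called for 9.81% of all features, 5.52% in the direction of a higher TAA value at 2 weeks, and for 4 of the 36 members, all 4 in that direction. They were Slc25a20 (1.78 ± 0.27, adjusted p = 0.0299), Acads (1.30 ± 0.27, adjusted p = 0.0456), Etfdh (1.35 ± 0.28, adjusted p = 0.0462) and Crat (adjusted p = 0.0266). No size is given for Crat, which was not well above background on the TAA arrays at 1 week. With normexp background correction its term was 0.48 and was not called (adjusted p = 0.0885). The median of the term was 0.58 over the members and 0.06 over all features. Without the array of TAA at 1 week with NC, Slc25a20 (1.59) and Crat remained called and Acads (1.13) and Etfdh (1.1) did not. Without any one of the 4 CCl4 arrays, or either of the 2-week TAA arrays, none of the 4 was called, as was no feature (0%), and without TAA at 1 week with miR-29a 12 members were called higher, against 6.98% of features.

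Both weeks together, TAA and CCl4 did not separate any feature at the adjusted threshold (0% called, limma, 28.7% at an unadjusted p under 0.05, which 12 members reached). The direction was nearly uniform, with 35 of the 36 members below 0 and Decr2 at 0.24, where 38.5% of all features were above 0. The median was −0.48 against −0.13 over all features. The medians over the members in the 4 matched pairs of arrays were −1.06 at 1 week with NC, −0.54 at 1 week with miR-29a, −0.15 at 2 weeks with NC and −0.28 at 2 weeks with miR-29a. All 4 TAA arrays were below all 4 CCl4 arrays for 10 members, against 18.1% of features. These were Acsl1, Cpt2, Acadvl, Acadl, Acadm, Acaa2, Decr1, Eci1, Etfdh and Hsd17b4, which are enzymes of fatty acid activation, the shuttle and beta-oxidation. Such separation was not particular to them. Of 53 measured respiratory chain genes, 33 were without overlap in the same direction, and all 53 had a fitted difference below 0.

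The second comparison was between the weeks. Within TAA the fitted difference between weeks was above 0 for 29 of 36 members, against 53.8% of all features. The median was 0.42, against 0.04 over all features. Both 2-week arrays lay above both 1-week arrays for 19 members, against 30.9% of features, and below them for 2, against 22.7%. No member and no feature was called (0%, limma), although 27% of features and 17 members had an unadjusted p under 0.05, 16 of them higher at 2 weeks. The fitted differences were 1.20 for Slc25a20 (adjusted p = 0.0633), 1.04 for Etfdh (adjusted p = 0.0659) and 0.78 for Acads (adjusted p = 0.0867). Acot1 was at 2.77 (adjusted p = 0.0948), Pdk4 at 2.51 (adjusted p = 0.0963) and Ehhadh at 0.98 (adjusted p = 0.0979). Ppargc1a, at −0.90, was the member with an unadjusted p under 0.05 that was lower at 2 weeks.

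Within CCl4 the median difference between weeks was −0.03, both over the members and over all features. Member differences ran from −0.77 to 0.955, and 22 of 36 were below 0, where 45.8% of all features were above 0. None of the 36 was called, against 1.08% of features, and 5 had an unadjusted p under 0.05, against 18.5%. These were Cpt1a (−0.63, adjusted p = 0.156), Slc25a20 (−0.58), Crat (−0.58), Acads (−0.52) and Ppara (−0.46), each with the lower value at 2 weeks. The CCl4 and TAA courses share no arrays. Over both agents the week term called 0% of features (limma, 5.19% at an unadjusted p under 0.05, with Pdk4 at 1.73 and Ppara at −0.41 among the members).

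The third comparison was between the oligonucleotides, which the series' title places in the study of how miR-29a acts in liver fibrosis. No member and no feature was called between miR-29a and NC (0%, limma), 2.83% of features had an unadjusted p under 0.05, and 1 member did. It was Ppara, at 0.42 ± 0.13 (unadjusted p = 0.017, adjusted p = 1), with miR-29a above NC in all 4 pairs, by 0.31 after CCl4 and 0.67 after TAA at 1 week and by 0.56 and 0.16 at 2 weeks. Ppara and Hadh were the members above in all 4 pairs, 2 of 36 against 10.3% of features. The median over the members was 0.18, against 0.03 over all features, and 30 were above 0.

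The 4 pairs gave different medians. The median over the 36 was 0.20 in the 1-week and 0.04 in the 2-week pair after CCl4, and 0.68 and −0.14 in the corresponding pairs after TAA. In the TAA pair at 1 week 34 of 36 were higher with miR-29a, 6 of them over 2-fold, against 3.96% of features. In the TAA pair at 2 weeks 30 of 36 were lower with miR-29a. Cyp4a14 was at 3.84 in the first of these and 0.01 in the second, and Acot1 at 2.46 and −0.39. The NC array of the TAA pair at 1 week is the one on which the acute phase, Kupffer cell and neutrophil lists were high. Their part in this pair was not tested.

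Pdk4 had the largest oligonucleotide difference among the 36 by fitted value, −1.01, with miR-29a lower by −1.45 and −2.17 after CCl4 at 1 and 2 weeks, higher by 0.73 after TAA at 1 week and lower by −1.16 after TAA at 2 weeks. It was not called. Of 19 measured genes of the circadian clock, limma called 0 between miR-29a and NC and 0 between weeks. At an unadjusted p under 0.05 there were 12 of the 19 between oligonucleotides, against 2.83% of all features, and 13 between weeks, against 5.19%. Their summed level was 359.9, 294.8, 433.9 and 251.3 on the miR-29a arrays of CCl4 at 1 and 2 weeks and TAA at 1 and 2 weeks, and 231.5, 151.5, 284.7 and 147.6 on the NC arrays in the same order. Each miR-29a array was above its NC partner in this sum, which follows the brightest genes. Single clock genes moved in both directions, with fitted differences between oligonucleotides above 0 for 15 and below 0 for 4, from −1.76 to 2.66. The hour at which livers were taken is not given in the labels, and the part of the clock genes in the members' values was not tested. The terms for a different miR-29a effect by agent or by week called 0% of features each (limma, 1.39% and 1.92% at an unadjusted p under 0.05).

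**Figure D4:**
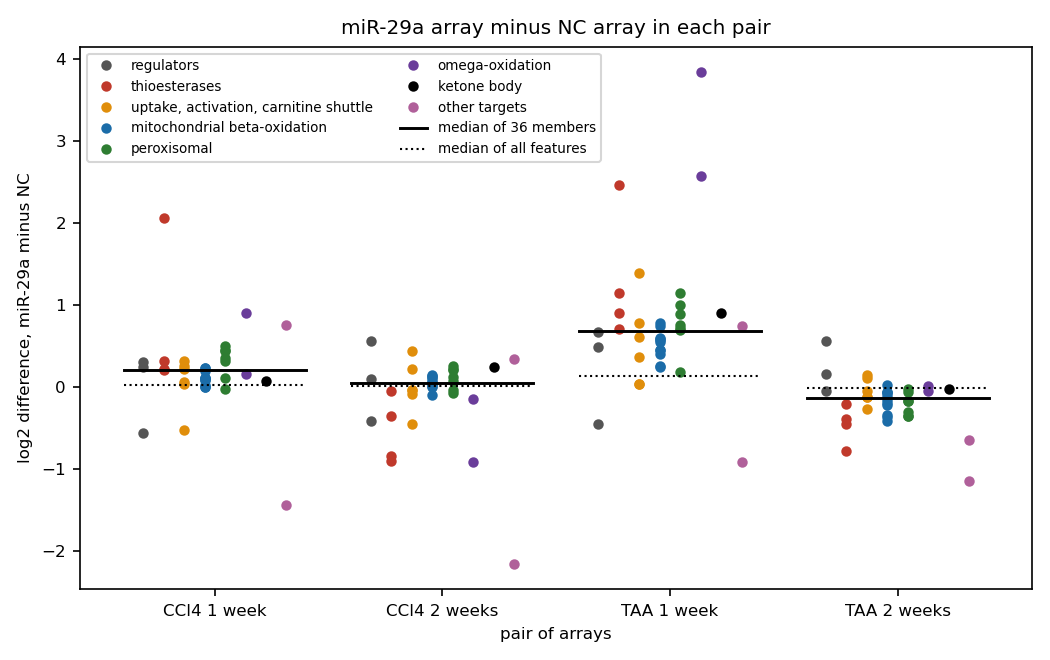
Difference between the miR-29a and the NC array (log2, vertical axis) for each member in the 4 pairs, coloured by role. The solid line is the median of the 36 members and the dotted line that of all features. The TAA pair at 1 week lies mostly above 0 (median 0.68), and the TAA pair at 2 weeks mostly below (median −0.14).

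Wider lists of the same biology placed the members among their neighbours. At 1 week TAA was lower than CCl4 for 12 of 22 measured genes of mitochondrial fatty acid and propionyl-CoA oxidation, and higher for 0. Of all features 23% were called lower and 12.6% higher. The median over the 22 was −0.72. The propionyl-CoA carboxylase subunits Pccb (−1.57, adjusted p = 0.00448) and Pcca (−1.53, adjusted p = 0.0057) were the largest, followed by Ech1 (−1.19) and Acad11 (−1.18). Among 37 measured peroxisomal genes, 21 were lower and 1 (Acox3, 0.67) higher, against the same shares of all features, with a median of −0.71. Dhrs4 (−1.80), Crot, which makes medium-chain acylcarnitines (−1.54), and Hacl1, which shortens branched chains (−1.34), were among the lower ones.

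Of 51 other measured PPAR-alpha targets, 9 were lower and 2 higher at 1 week, a smaller share than the 23% of all features called lower. Retsat, which saturates retinol, was at −2.33, G0s2, an inhibitor of triglyceride lipase, at −1.84, and the lipid droplet protein Plin5 at −1.42. Slc25a47, a mitochondrial carrier of the liver, was at −1.35. Cd36, a fatty acid transporter (0.73), and Slc27a4, a fatty acid transport protein (0.84), were higher. Of 29 nuclear receptors and cofactors, 4 were lower, again a smaller share than the 23% of all features: Nr0b2 (−2.13), a repressor in bile acid synthesis, Tfam (−1.37), which maintains mitochondrial DNA, and the cofactors Nrip1 (−1.18) and Ncoa2 (−0.65).

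Of 15 measured genes of a fatty acid synthesis list, 3 were lower (Pklr −1.32, Fads1 −1.25 and Elovl5 −0.72), near the 23% of all features, and the list's median of −0.11 was close to that of all features (−0.16). Of 53 measured genes of the respiratory chain 19 were lower and 0 higher, against 23% and 12.6% of all features, with a median of −0.60. They included Ndufa10 (−1.55) of complex I, Sdhd (−1.47) of complex II, Cyc1 (−1.14) of complex III and Cox5a (−1.18) of complex IV. The respiratory chain list deviated by −0.61 on the array of TAA at 1 week with NC, beside −0.80 for the 36 members. At 2 weeks none of these lists held a called gene, as no feature was called.

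**Figure D5:**
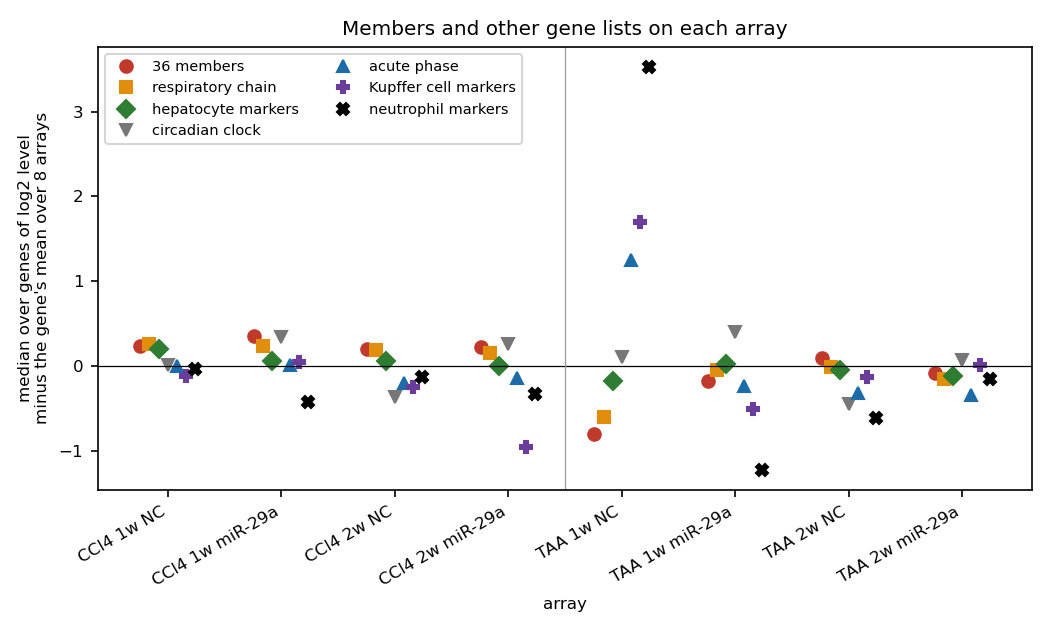
Median deviation from gene means (log2, vertical axis) of 7 gene lists on each of the 8 arrays. The 36 members and the respiratory chain list are lowest on the array of TAA at 1 week with NC (−0.80 and −0.61), where the acute phase (1.25), Kupffer cell (1.69) and neutrophil (3.53) lists are highest.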

How the data were processed

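Liver RNA was measured on 8 one-colour Agilent arrays (Cy3). The deposited intensity files are scanner output of Agilent Feature Extraction 10.10.1.1, and their processed signal is background-subtracted, both per the file headers. The deposited log2 value table equals log2 of that signal less a constant per array, within 0.01 for every probe compared. Its values have a 75th percentile near 0, and it was used as an alternative. From 55657 probes, log2 intensity minus each array's 75th percentile was computed, and the brightest probe per gene that was well above background on at least 4 arrays was kept. Names came from the files' accessions and symbols through RefSeq (GRCm38.p6), by accession for 27641 probes, by symbol for 3400 and by older symbol for 321, and 24295 kept the file's name. Probe positions are mm9, per the file headers. Which exon or UTR a probe lies in was not determined here.

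All tests used limma 3.58.1 in R 4.3.3 (lmFit and eBayes) on all 8 arrays, with Benjamini-Hochberg adjustment at 0.05. Agent, week and oligonucleotide entered additively, and an agent by week term was added for comparisons within a week or agent. The scripts were tested on simulated data. A gene not above background on every array of a group is given as a bound: the other group's mean against, per array, the higher of the dim probe's signal and the lowest signal of any probe well above background. The number of arrays limits the precision.

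The members and lists were chosen with earlier results of these data known. Array values are printed for Ppara, Ppargc1a, Cpt1a, Ehhadh, Cyp4a10, Cyp4a14, Acot1, Pdk4 and Bdh1, and for up to 4 further genes per role by the size of called differences (the 2 largest where fewer were called). Of each wider list up to 4 are named by the same order, with Acat1. Some genes the rule names are not reported here. Acox3, Cd36, Slc27a4, Hadh, Fabp1, Cpt2, Acot3, Decr2 and the remaining called genes were named after their values were seen. Alternatives were quantile and median scaling, normexp with an offset of 50, the deposited table, other filters, the mean of a gene's probes, and leaving out each array. A block for slide or scan was not run, since all arrays share both.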

Additional observations from a re-analysis of the deposited data

Results flagged for a closer look

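The agent difference changed between 1 and 2 weeks, by the test of that change itself, for 4 of the 36 members, each in the direction of a higher TAA value at 2 weeks, where 9.81% of all features were called and 5.52% in that direction. The change was 1.778 for Slc25a20, 1.297 for Acads and 1.348 for Etfdh (log2, limma's agent by week term). For Crat the term was 3.399 on the signal as measured, which is not given as a size of change. Slc25a20 went from −1.61 at 1 week to 0.17 at 2 weeks, Acads from −1.19 to 0.10 and Etfdh from −1.64 to −0.29. The Crat value is no measured size, since the probe was not well above background on the TAA arrays at 1 week, and with normexp it was 0.48 and not called. None of the 4 was called when any one of the 4 CCl4 arrays or either of the 2-week TAA arrays was left out, or without a filter on dim probes.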

How the results depend on the processing

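At 1 week, members called lower after TAA numbered 8 with quantile normalization (with 1 higher, Decr2), 30 with the array median as scale, 5 without a filter on dim probes, and 3 to 26 when each array was left out in turn, with 0 to 1 higher. Of all features 17.8%, 57.6%, 6.13% and 5.07% to 26.6% were lower in these settings. The median over the 36 was then −0.445 with quantile normalization, −1.414 with the array median and −1.094 to −0.432 leaving out arrays. Less the median of all features it was −0.662 as reported, −0.662 with the array median, −0.384 with quantile normalization and −0.329 without TAA at 1 week with NC. At 2 weeks the median was −0.035 with quantile normalization, −0.427 with the array median and −0.470 to −0.014 leaving out arrays. Over both weeks, 14 members were called lower with the array median, and 28.3% of all features. The median change over time after CCl4 was −0.245 with the array median and −0.189 to 0.023 leaving out arrays. Members called higher at 2 weeks after TAA numbered 10 with normexp (9.85% of all features), 3 with the array median (3.77%), 2 among probes well above background on all 8 arrays (3.74%) and 0 to 10 leaving out arrays (0% to 2.41%). The agent by week term called 7 members higher with normexp (11.9% of all features), 7 with the array median (15.6%), 0 without a filter (0%) and 0 to 12 leaving out arrays (0% to 6.98%). The direction reversed for Ppara at 1 week (0.053, quantile normalization) and for Eci1 between weeks after TAA (−0.038 without TAA at 2 weeks with NC, and up to 0.691 leaving out another array). The cause of these changes was not tested. With agent and week combinations as a block, the oligonucleotide comparison called 0 members, as without it. This block is the paired form of that comparison, by agent and week. The labels give no replicate numbers. Dim probes such as Crat and Acot2 limit what can be said of their fold: with normexp Crat was at −0.31 (limma, adjusted p = 0.0656) and Acot2 at −0.52 (adjusted p = 0.0605) at 1 week, and neither was called.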
